A study of Mus musculus with 830 samples.

Results

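The caudal genes Cdx1, Cdx2 and Cdx4 were followed through single-cell transcriptomes of early mouse endoderm. They are 3 of the 26313 gene symbols in the deposited read counts, taken by name and described in all 830 cells, by reporter and stage and beside Pdx1 and Neurog3 in the same cells. The cells came from endodermal and gut tissue of embryos of the cross C57BL/6XC3H. They were stained for EpCAM, a surface protein of epithelia, sorted alive by flow cytometry, and their RNA was read by Smart-seq3xpress, which covers whole transcripts of cells in plates, so that each sample is 1 cell. The labels give 3 genotypes, all built on Neurog3 (Ngn3). Ngn3-Cre; Ai6 cells (called Ngn3Cre; 333 cells) carry a Cre recombinase named for Neurog3 and the Ai6 reporter, which Cre switches on permanently in a cell and its descendants. Ngn3-GFP/GFP cells (HM; 171 cells) carry GFP on both Neurog3 alleles, and Ngn3-GFP/+ cells (HZ; 326 cells) carry it on 1 allele. Every group carries a Neurog3 reporter, and HZ serves as the baseline. Whether cells were gated on a reporter, and how many embryos gave them, is not stated in the labels. Stages are somite numbers: Ngn3Cre cells came from 18, 21, 24 and 27 somites, and HM and HZ cells from 15, 18, 21, 24 and 27.

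Caudal proteins are homeobox transcription factors that give posterior identity to the embryo. They act downstream of Wnt, FGF and retinoic acid signals and bind at Hox genes. Cdx2 is the main regulator of intestinal identity in the endoderm of midgut and hindgut, Cdx4 is used early and near the tail end of the embryo, and Cdx1 is used in the primitive streak and later in intestinal epithelium. Pdx1, a homeobox factor of pancreas and duodenum, lies beside Cdx2 in the ParaHox cluster, and Neurog3 encodes the factor that commits pancreatic and gut progenitors to an endocrine fate.

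In GRCm38 (GENCODE vM21), Cdx2 lies on chromosome 5 at 147300805 to 147307270 on the minus strand, with 24956 bases and no protein-coding gene between it and Pdx1 (147269959 to 147275848, plus strand). Cdx4 lies on chromosome X at 103321398 to 103330592 on the plus strand. Cdx2 and Cdx4 each have 3 exons in the longest transcript, and neither overlaps another annotated gene. Pdx1 overlaps the antisense gene Plut, and Neurog3 lies within the protein-coding gene Fam241b, both on the opposite strand. The promoters of Cdx2 and Cdx4 are printed because most cells with Cdx4 also held Cdx2. They come from RefSeq on GRCm38.p6 (250 bases before to 50 after the start), at chr5:147307200-147307499 on the minus strand for Cdx2 and chrX:103321148-103321447 on the plus strand for Cdx4. Capitals mark an octamer ATGCAAAT and a CCAAT box (written ATTGG where it lies on the other strand).

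Cdx2: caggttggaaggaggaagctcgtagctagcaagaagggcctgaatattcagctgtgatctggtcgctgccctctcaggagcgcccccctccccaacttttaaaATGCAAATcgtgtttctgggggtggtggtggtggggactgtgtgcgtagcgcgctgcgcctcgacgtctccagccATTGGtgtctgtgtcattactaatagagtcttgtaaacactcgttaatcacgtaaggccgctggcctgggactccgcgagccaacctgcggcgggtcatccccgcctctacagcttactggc
Cdx4: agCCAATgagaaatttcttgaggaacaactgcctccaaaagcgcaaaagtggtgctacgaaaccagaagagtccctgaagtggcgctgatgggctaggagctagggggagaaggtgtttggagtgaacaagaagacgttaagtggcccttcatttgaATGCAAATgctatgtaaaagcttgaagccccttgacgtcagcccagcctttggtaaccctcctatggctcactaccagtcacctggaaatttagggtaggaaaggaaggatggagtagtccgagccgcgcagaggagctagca

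The octamer, a motif chosen after the sequences were seen, begins 147 bases before the start of Cdx2 and 93 before that of Cdx4, and 1.74% of 32851 RefSeq promoters of this length hold it on either strand. The CCAAT box begins 72 and 248 bases before the starts and occurs in 37.4% of promoters; 0.858% hold both. Neither window holds the caudal motif TTTATNG (10.9% of promoters), the TCF/LEF motif CTTTGNA (18.1%) or TATAAA (13.6%) on either strand. GC content is 57.3% for Cdx2 and 50.3% for Cdx4.

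Cells held 1400 to 2525083 reads, with medians of 465918 in Ngn3Cre, 626967 in HM and 378157 in HZ, and 117 cells held under 100000 reads. For tests, all cells of 1 genotype at 1 stage were added up to a pool, because the labels name no embryo and cells are not replicates. Of 14 such pools, 11 held at least 10 cells and entered tests (3 of Ngn3Cre, 4 of HM, 4 of HZ, with 8299225 to 70763553 reads each). Each genotype had 1 pool a stage. The p-values thus measure only the spread between pools that the fitted genotype and stage terms leave over, and not the spread between embryos. A pool cannot tell fewer cells of a type from less RNA per cell. Neurog3 itself averaged 9.04 ± 2.17 CPM (a gene's reads scaled to the total reads of its pool or cell) in HM and 108 ± 28.4 CPM in HZ (SD, n = 4 pools each), and fell by 3.69 ± 0.44 on the log2 scale in HM (edgeR adjusted p = 0.00336). Epcam itself reached 10 CPM in 99.0% of endocrine-like, 95.6% of unnamed, 86.2% of mesenchyme-like and 54.4% of neural or neural crest-like cells, the last being a class outside the labelled endoderm (90 cells).

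Cdx2 had 18169 reads in 294 cells, Cdx4 1572 reads in 121 cells and Cdx1 299 reads in 36 cells. On the length-adjusted TPM scale, where each cell weighs the same, Cdx2 averaged 2.80 ± 2.67 in Ngn3Cre, 65.3 ± 35.0 in HM and 26.2 ± 14.2 in HZ (SD over 3, 4 and 4 pools). Cdx4 averaged 5.81 ± 6.00, 22.9 ± 24.2 and 9.07 ± 11.2 TPM in Ngn3Cre, HM and HZ, and Cdx1 1.08 ± 1.45, 0.207 ± 0.227 and 1.13 ± 0.596 TPM. The TPM means of Cdx4 rest partly on shallow cells. In HM at 18 somites 13 reads gave a mean of 34.3 TPM beside 1.13 CPM. There 1 cell reached 437 CPM although no cell held over 4 reads. In Ngn3Cre at 21 somites 67 reads gave 12.7 TPM beside 1.41 CPM. In Ngn3Cre the TPM of Cdx2 and Cdx4 did not differ beyond their spread, while in HM and HZ the mean of Cdx2 was the highest of the 3, with spreads that overlapped those of Cdx4 in both. The levels of Cdx2 were lowest in Ngn3Cre. In Ngn3Cre the pools of 21, 24 and 27 somites held 3.66, 6.68 and 0.263 CPM. In HM the pools of 15, 18, 21 and 24 somites held 86.8, 35.7, 83.8 and 139 CPM. In HZ the pools of 18, 21, 24 and 27 somites held 53.5, 45.8, 43.6 and 9.30 CPM. All 3 Ngn3Cre pools lay below every HM and HZ pool, while HM and HZ overlapped: HM was below HZ at 18 somites and above it at 21 and 24. With TMM scaling the means were 3.44 ± 3.10 CPM in Ngn3Cre, 88.1 ± 40.1 in HM and 37.9 ± 19.9 in HZ (SD, n = 3, 4 and 4 pools). The 3 pools under 10 cells, kept out of the tests, held 6.58 CPM (Ngn3Cre, 18 somites), 96.9 CPM (HM, 27 somites) and 10.4 CPM (HZ, 15 somites).

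**Figure D1:**
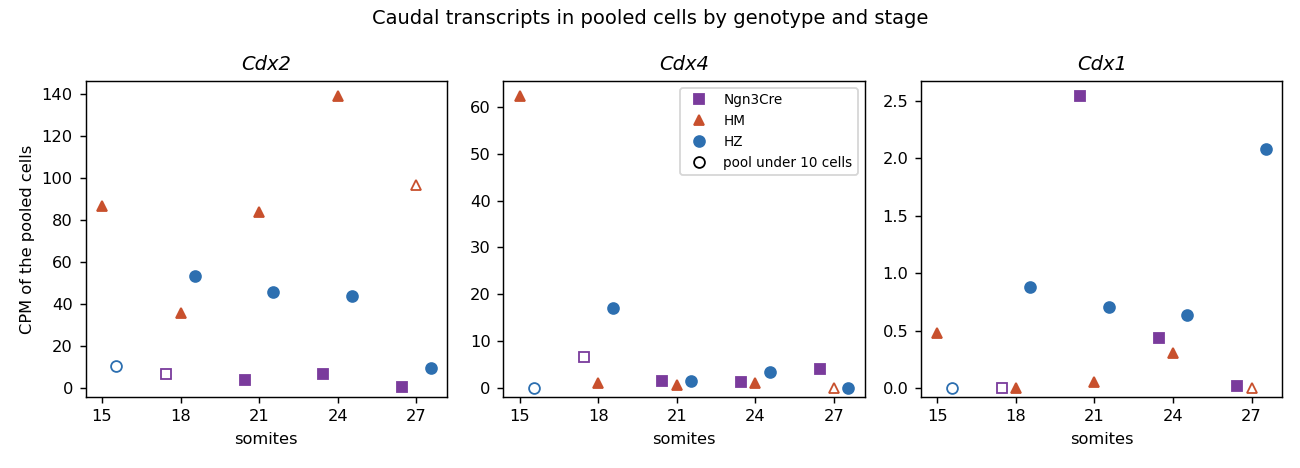
CPM of Cdx2, Cdx4 and Cdx1 (1 panel each, with its own linear vertical axis) in the pooled cells of Ngn3Cre, HM and HZ by somite number; each point is 1 pool, and open points are pools under 10 cells. Filled Ngn3Cre points for Cdx2 stay at or below 6.68 CPM, and 1 HM pool of 15 somites (62.4 CPM) stands apart for Cdx4.

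Cdx2 fell in Ngn3Cre against both GFP genotypes. In the fit with genotype and stage, its log2 fold change from HZ was -3.94 ± 0.49 in Ngn3Cre (SE; edgeR adjusted p = 0.0222, lower at all shared stages), where 0.337% of 18420 tested genes were called, 0.00543% higher and 0.331% lower. Against HM the log2 fold change in Ngn3Cre was -4.43 ± 0.50 (edgeR adjusted p = 0.00123, lower at both shared stages), where 10.1% of genes were called, 5.08% higher and 5.02% lower. Between HM and HZ it was 0.49 ± 0.43 and did not pass (edgeR adjusted p = 0.679; 1.47% of genes called, 0.0923% higher and 1.38% lower). Pdx1, the neighbour of Cdx2, passed in none of the contrasts (0.60 in HM over HZ, -0.58 in Ngn3Cre over HZ and -1.18 in Ngn3Cre over HM; edgeR adjusted p = 0.562, 0.709 and 0.144). The HM pool of 15 somites is alone at its stage and carries no weight in these 3 contrasts. The call against HZ ended in a fit without endocrine-like cells (-3.20, edgeR adjusted p = 0.187), in all 3 limma fits on means of log2 values, with all 14 pools, without the stage term, and without the 21-somite pool of Ngn3Cre (adjusted p = 0.17) or of HZ (0.0768). The call against HM also ended without endocrine-like cells (-2.98, edgeR adjusted p = 0.0793).

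The share of endocrine cells moved with these differences, and its part in them was not tested beyond the fits given here. Cells of clusters with endocrine markers made up 74.5% of Ngn3Cre cells (248 of 333), 1.17% of HM cells (2 of 171) and 42.3% of HZ cells (138 of 326). Of 11 endocrine markers other than Neurog3 none was at 0 in any genotype, and their summed level ran from 12807 to 23632 CPM over the Ngn3Cre pools, 55.3 to 535 CPM over the HM pools and 704 to 13426 CPM over the HZ pools. Within endocrine-like cells Cdx2 stood at 2.08 CPM in Ngn3Cre and 1.14 CPM in HZ, and the log2 fold change there was 0.51 (edgeR adjusted p = 0.997).

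No slope of a caudal gene over stage passed in edgeR. The slope of Cdx2 per somite over the 11 pools was -0.09 ± 0.11 on the log2 scale (edgeR adjusted p = 0.885). Its slope was 0.31 ± 0.13 greater in HM than in HZ, which did not pass (edgeR adjusted p = 0.653, unadjusted p = 0.0433). edgeR called 0.00% of 16478 genes for the common slope and 0.00% of 16207 for the difference, while 1377 and 1232 genes had an unadjusted p under 0.05.

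Counting cells gave the same order as the pools. A cell was called positive for a gene at 10 CPM or more. Cdx2-positive cells made up 5.11% of Ngn3Cre cells (17 of 333; exact 95% binomial interval 3.00% to 8.05%), 64.3% of HM cells (110 of 171; 56.7% to 71.5%) and 25.5% of HZ cells (83 of 326; 20.8% to 30.6%). Intervals cover counting error only. In the 90 neural or neural crest-like cells, 0 cells were positive at a median of 492410 reads (exact 95% upper limit 4.02%). That class is not a known negative for caudal genes, so its shares serve only as a comparison. With each cell thinned to 100000 reads and 1 read required, the shares were 7.27% of 289 Ngn3Cre cells, 72.0% of 143 HM cells and 28.1% of 281 HZ cells, leaving out 44, 28 and 45 shallower cells. Positive cells also differed in level, with medians of 47.5 CPM in Ngn3Cre, 149 CPM in HM and 111 CPM in HZ.

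By stage, Ngn3Cre held 6 of 106, 9 of 155 and 1 of 69 Cdx2-positive cells at 21, 24 and 27 somites. HM held 12 of 16 at 15 somites (75.0%), 5 of 17 at 18 (29.4%), 37 of 54 at 21 (68.5%) and 54 of 80 at 24 (67.5%). HZ held 23 of 61 at 18 somites (37.7%), 33 of 149 at 21 (22.1%), 24 of 85 at 24 (28.2%) and 2 of 26 at 27 (7.69%). At 21 and 24 somites the 3 genotypes' intervals did not overlap, whereas at 18 somites those of HM and HZ did.

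**Figure D2:**
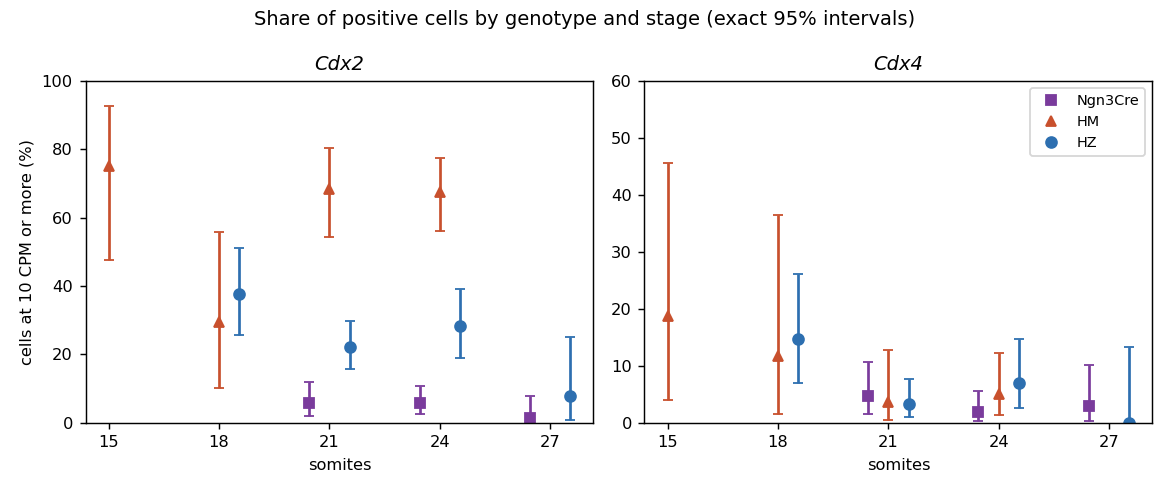
Percent of cells at 10 CPM or more for Cdx2 (left) and Cdx4 (right, shorter axis) by somite number in the 11 tested pools of Ngn3Cre, HM and HZ; bars are exact 95% binomial intervals. For Cdx2, HM reaches 68.5% and 67.5% at 21 and 24 somites and Ngn3Cre 5.66% and 5.81%; for Cdx4 the intervals overlap at every stage.

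The cells were clustered without the caudal genes, Pdx1 and Neurog3, and Cdx2 sat in a few of 13 clusters. Cluster 8 (52 cells; with Nrn1, Fabp1 and Pdgfc among its leading genes) held Cdx2 at 183 CPM, in 51 of 52 cells. Cluster 10 (46 cells) held it at 206 CPM, in 44 of 46 cells. The leading genes of cluster 10 include the foregut marker Osr2 beside Psca, Mgam and Sycn. Of 8 midgut and hindgut markers it carried 2, the intestinal genes Isx and Tff3. Neither reached 3 markers of a named type, so both stay unnamed. Levels were lower in mesenchyme-like cells (53.3 CPM, 28 of 58 cells), in the unnamed cluster 4 led by Osr1 and Tcf21 (51.8 CPM, 38 of 84), in the pancreatic progenitor-like cluster 11 (45.4 CPM, 24 of 45) and in hepatic-like cells (23.5 CPM, 9 of 20). Clusters 4 and 11 both carried the pancreatic progenitor markers Sox9, Nkx6-2, Mnx1, Onecut1 and Gata4, and 54 of the 84 cells of cluster 4 held Pdx1. Cluster 4 stays unnamed because the foregut marker Osr1 is among its leading genes and none of those markers is, while cluster 11 is led largely by cell cycle genes such as Bub1b and Ccnb1. In the 388 endocrine-like cells, with a median of 421378 reads, Cdx2 stood at 1.82 CPM and 11 cells were positive (2.84%).

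Clusters 8 and 10 lay mostly in the GFP genotypes. They held 1 of 333 Ngn3Cre cells (0.300%), 65 of 171 HM cells (38.0%) and 32 of 326 HZ cells (9.82%). Inside cluster 8, Cdx2 stood at 186 CPM in HM cells and at 178 CPM in those of HZ. Inside cluster 10 it stood at 197 CPM in HM cells and at 235 CPM in those of HZ, with 1 value a genotype and no test. In HM they took 0 of 16, 2 of 17, 22 of 54 and 41 of 80 cells at 15, 18, 21 and 24 somites, and in HZ 5 of 61, 14 of 149, 12 of 85 and 1 of 26 at 18, 21, 24 and 27. The Cdx2-positive HM cells of 15 somites were thus all outside these clusters. Clusters 4 and 11 share 5 pancreatic progenitor markers. In cluster 4 Cdx2 stood at 51.5 CPM in HM (20 of 45 cells, exact interval 29.6% to 60.0%) and 62.5 CPM in HZ (17 of 35, 31.4% to 66.0%). In cluster 11 it stood at 63.2 CPM in HM (14 of 22, 40.7% to 82.8%) and 25.9 CPM in HZ (8 of 19, 20.3% to 66.5%). The intervals of HM and HZ overlapped in both clusters, and no difference was tested.

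**Figure D3:**
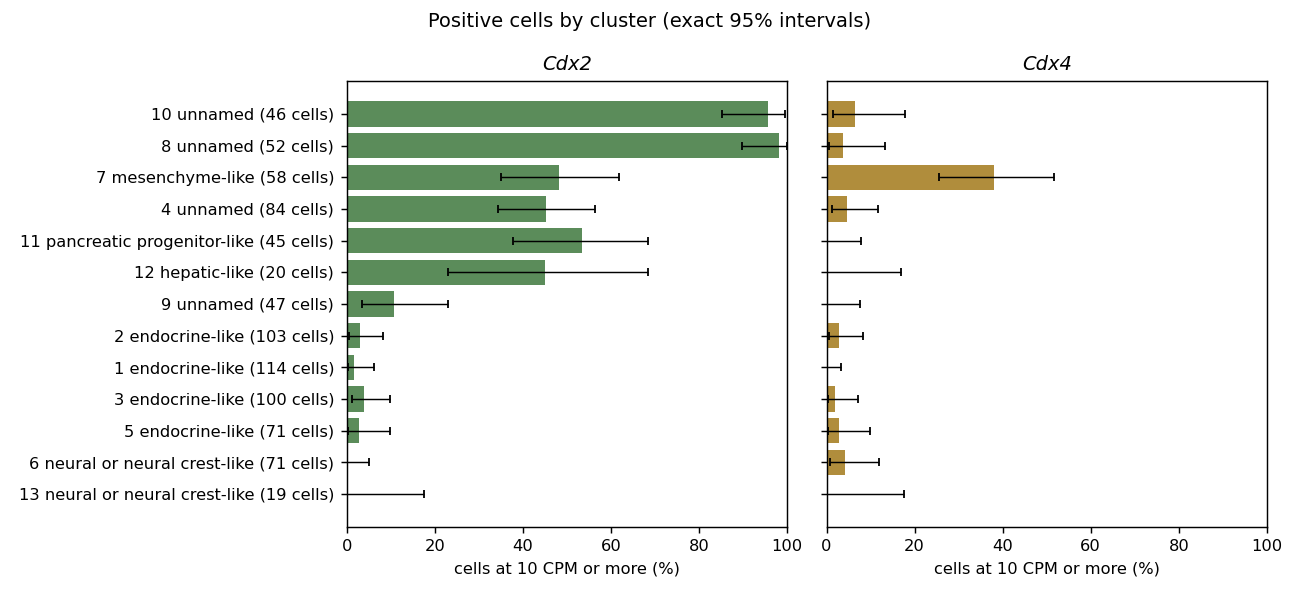
Percent of cells at 10 CPM or more for Cdx2 (left) and Cdx4 (right) in each of 13 clusters, ordered by Cdx2 CPM with the highest on top; bars start at 0 and whiskers are exact 95% binomial intervals. Clusters 8 and 10 are nearly filled with Cdx2-positive cells, and the mesenchyme-like cluster 7 holds the highest share of Cdx4-positive cells (37.9%).

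Pdx1 and Cdx2 shared cells. Of 160 Pdx1-positive cells 63 were Cdx2-positive (39.4%), against 147 of 670 Pdx1-negative cells (21.9%), and the share was higher with Pdx1 in 8 of 11 pools. With 50 CPM as the threshold for both genes the majority turned, with a higher share in 4 of 10 pools and a lower one in 5. The median depth was 534843 reads with Pdx1 and 422345 without. Genotypes differed in this relation. In Ngn3Cre the shares were 13.6% with Pdx1 (6 of 44) and 3.81% without (11 of 289). In HM they were 55.8% with Pdx1 (29 of 52) and 68.1% without (81 of 119), the opposite order. In HZ they were 43.8% with Pdx1 (28 of 64) and 21.0% without (55 of 262). The 3 pools with the lower share in Pdx1-positive cells were all HM: 5 of 9 with Pdx1 against 7 of 7 without at 15 somites, 0 of 5 against 5 of 12 at 18, and 14 of 24 against 40 of 56 at 24. The widest gap of HZ was at 21 somites, with 12 of 20 against 21 of 129. Whether the relation differs between genotypes was not tested.

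The opposite held for Neurog3 in HZ. There 11.1% of Neurog3-positive cells held Cdx2 (18 of 162), against 39.6% of Neurog3-negative cells (65 of 164). In HM the shares were 67.2% with Neurog3 (39 of 58) and 62.8% without (71 of 113), and in Ngn3Cre 4.24% with it (7 of 165) and 5.95% without (10 of 168). These small differences in HM and Ngn3Cre changed sign under other thresholds or depths. Neurog3-positive HM cells held little Neurog3, with a median of 18.9 CPM and a highest value of 57.9 CPM. In HZ these were 159 and 1452 CPM. Whether reads of the overlapping gene Fam241b were counted as Neurog3 was not tested. By stage, the HZ share was lower with Neurog3 at 18 somites (4 of 21 against 19 of 40 without), 21 (7 of 80 against 26 of 69) and 24 (4 of 46 against 20 of 39), and higher at 27 (2 of 13 against 0 of 13). With cells thinned to 100000 reads, the HZ shares were 13.5% (21 of 155) with Neurog3 and 46.0% (58 of 126) without.

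**Figure D4:**
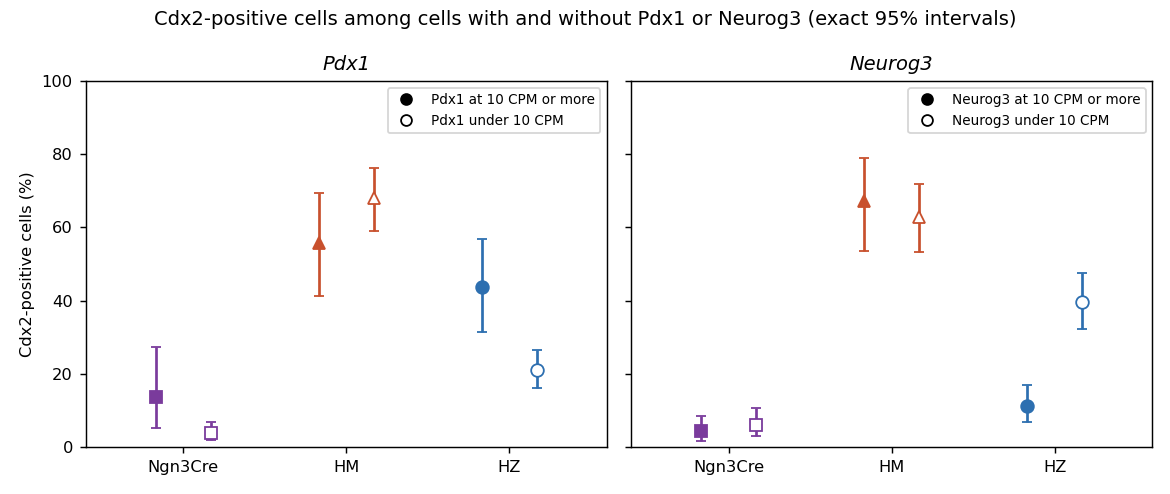
Percent of Cdx2-positive cells among cells with (filled) and without (open) Pdx1 (left) or Neurog3 (right) at 10 CPM or more, in Ngn3Cre, HM and HZ; bars are exact 95% binomial intervals. In HZ the Pdx1-positive cells lie above and the Neurog3-positive cells below their counterparts, and in HM the intervals overlap in both panels.

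Over 704 cells of at least 100000 reads in the tested pools, log2(CPM + 1) of Cdx2 centred on its pool had a Pearson r of -0.21 with Neurog3, 0.16 with Cdx4, 0.08 with Pdx1 and 0.05 with Cdx1. These are descriptions, and the cells share pools, depth and libraries. The 10 genes most like Cdx2 by that measure, among 12552 genes, were Upk1a (0.58), 2610528A11Rik, P4ha3, Prdm1, Tdh, Folr1, Shh, Gm21814, Ahnak and Pdgfc (0.53). Shh is a hedgehog ligand of gut endoderm, Prdm1 a repressor used in fetal intestine and Folr1 a folate receptor. The 5 least like it were Isl1 (-0.54), Neurod1, Igfbpl1, Nefm and Insm1 (-0.50), of which Isl1, Neurod1 and Insm1 are endocrine and neuronal transcription factors. Between genotypes, 4 of the 10 fell in Ngn3Cre against HZ, where 0.331% of all genes fell. These were Shh (-3.33), Tdh (-4.21), 2610528A11Rik (-4.02) and Prdm1 (-2.92), with edgeR adjusted p from 0.00766 to 0.0362. All 10 fell against HM, where 5.02% of all genes fell, and none passed between HM and HZ. The 10 genes were chosen for their likeness to Cdx2 in these same cells, so their falls are not independent of that of Cdx2.

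Some intestinal transcripts were higher in cells with Cdx2, and others were not. Of 24 intestinal epithelium genes 8 were over 2-fold higher and 2 over 2-fold lower in Cdx2-positive than in Cdx2-negative cells on the log2(CPM + 1) scale, with a median log2 ratio of 0.30 over all 24. Of 26310 genes other than the caudal ones 1502 were over 2-fold higher and 1574 lower. The genes named here were chosen after their values were seen, and the ratio mixes genotypes, so the counts within pools (at least 5 cells of each state) stand beside it. Isx, an intestinal homeobox factor, stood at 36.5 CPM with Cdx2 and 2.51 CPM without, and was higher in 8 of 8 pools. The fatty acid binding protein Fabp1 (52.7 CPM with Cdx2, 5.21 without) and the tetraspanin Tspan8 (62.3 with Cdx2, 6.53 without) were also higher in 8 of 8 pools, and keratin Krt20 (117 with Cdx2, 30.5 without) in 7. The 2 lower members were Cdhr1, a photoreceptor cadherin (4.35 CPM with Cdx2, 26.1 without), and the surface antigen Gpa33 (0.669 with, 3.74 without). Of 13 listed endocrine factors 11 were over 2-fold lower with Cdx2: Isl1 stood at 55.4 CPM with Cdx2 and 995 CPM without, and Neurod1 at 16.4 and 474 CPM, both lower in 8 of 8 pools. Of 12 listed pancreatic factors 3 were over 2-fold higher and 3 over 2-fold lower. Gata4, a factor of foregut endoderm and pancreas and 1 of the higher ones, stood at 94.6 CPM with Cdx2 and 23.4 CPM without.

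The same intestinal list between genotypes gave few calls. Of 22 members tested, 3 fell in Ngn3Cre against HZ and none rose, beside 0.331% of all genes that fell, namely Lgals2, a galectin (-6.36, edgeR adjusted p = 0.0185), Krt20 (-1.78, 0.0405) and Tspan8 (-2.84, 0.0452). The list's median log2 fold change was -0.82, beside -0.02 over all tested genes. Against HM, where 5.02% of all genes fell, 6 fell and none rose in Ngn3Cre (median -1.28, all genes 0.10), and between HM and HZ none passed (median 0.75, all genes -0.09). No Hox gene passed in any of the 3 contrasts among 12 of groups 1 to 4, 15 of groups 5 to 9 and 9 tested of groups 10 to 13. Of 12 tested posterior signals and early posterior factors, Greb1 and Sp8 fell in Ngn3Cre against HM. Of 10 Wnt targets and mediators 2 rose and 4 fell there. Of all genes 5.08% rose and 5.02% fell in that contrast. Neither list had a call in the other contrasts.

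Cdx4 was rare and uneven. In Ngn3Cre the pools of 21, 24 and 27 somites held 1.41, 1.19 and 4.07 CPM. In HM the pools of 15, 18, 21 and 24 somites held 62.4, 1.13, 0.734 and 1.15 CPM. In HZ the pools of 18, 21, 24 and 27 somites held 17.0, 1.40, 3.33 and 0.0547 CPM. Among these tested pools the earliest of HM and of HZ were the highest of their genotypes, and the groups overlapped. Of the untested pools, the 3 Ngn3Cre cells of 18 somites held 2 reads of Cdx4 (6.58 CPM), while the 4 HM cells of 27 somites and the 5 HZ cells of 15 somites held 0 reads. At 15 somites 3 of 16 HM cells gave 97.5% of the Cdx4 reads (247, 215 and 43 of 518), and at 18 somites 1 HZ cell gave 56.4% (239 of 424).

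No contrast of Cdx4 passed: the log2 fold change was 0.31 ± 1.32 for Ngn3Cre over HZ (edgeR adjusted p = 0.978), 1.82 ± 1.30 for Ngn3Cre over HM (0.450) and -1.51 ± 1.06 for HM over HZ (0.591), with SEs that leave several-fold differences undetected. Mean levels were 2.16 ± 1.54 CPM in Ngn3Cre, 17.9 ± 33.7 in HM and 5.51 ± 8.00 in HZ (SD, n = 3, 4 and 4 pools), an order for HM and HZ opposite to the fitted sign, because the 15-somite pool enters the mean and not the contrast. The slope of Cdx4 per somite was -0.53 ± 0.18 on the log2 scale, with an unadjusted p of 0.0114 and an edgeR adjusted p of 0.460; DESeq2 gave -0.54 and called it (adjusted p = 0.0204).

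Cdx4-positive cells numbered 10 of 333 in Ngn3Cre (3.00%), 11 of 171 in HM (6.43%) and 20 of 326 in HZ (6.13%), beside 3 of 90 neural or neural crest-like cells (3.33%; exact interval 0.693% to 9.43%). The pooled share of Ngn3Cre is below the neural one, which is not a known background, and single Ngn3Cre cells held 105, 69 and 59 Cdx4 reads. The 41 positive cells had a median depth of 191513 reads, against 467518 in negative cells, and 13 of the 41 rested on at most 3 reads. Of the 41, 22 lay in the mesenchyme-like cluster 7 (53.7%), where Cdx4 stood at 12.3 CPM in Ngn3Cre (5 of 13 cells positive), 86.2 CPM in HM (5 of 12) and 34.1 CPM in HZ (12 of 33). That cluster is led by Col3a1, Col1a1, Hoxa10 and Hand1, but 86.2% of its cells held Epcam and 41.4% held Col1a1 at 10 CPM or more. Among its Cdx4-positive cells 21 of 22 held Epcam, 6 held Col1a1 and 4 held Col3a1, against 29, 18 and 18 of its 36 Cdx4-negative cells. In a separate, finer clustering, Cdx4 was found in 15 of 32 cells of a mesenchyme-like cluster and in 8 of 24 cells of an unnamed cluster with a median of 130374 reads.

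Most cells with Cdx4 held Cdx2 as well. Of the 41 Cdx4-positive cells 24 were also Cdx2-positive (58.5%). Seen from Cdx2, 11.4% of Cdx2-positive cells held Cdx4 (24 of 210) and 2.74% of Cdx2-negative cells did (17 of 620), with the higher share on the Cdx2 side in 6 of 8 pools. The highest Cdx4 cells of HM, at 15 somites, held 106 and 112 Cdx2 reads beside 247 and 215 of Cdx4. With Pdx1 the shares of Cdx4 were close, at 5.00% of Pdx1-positive (8 of 160) and 4.93% of Pdx1-negative cells (33 of 670). With Neurog3 the shares of Cdx4-positive cells were 3.38% (13 of 385) and 6.29% without it (28 of 445). The genes most like Cdx4 were Lef1 (r = 0.44), a Wnt-responsive factor, the ligand Bmp4 (0.37), Hoxa5 (0.31), Msx1 and Hoxb5os.

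Posterior Hox transcripts accompanied Cdx4. In Cdx4-positive against Cdx4-negative cells, 15 of 15 listed Hox genes of groups 5 to 9, 9 of 12 of groups 10 to 13 and 5 of 12 of groups 1 to 4 were over 2-fold higher on the log2(CPM + 1) scale, with no filter on low values. The median log2 ratios over all listed members were 3.76, 3.25 and 0.56, and of 26310 genes other than the caudal ones 872 were over 2-fold higher and 1645 lower. Examples chosen after their values were seen include Hoxc10 at 90.5 CPM with Cdx4 and 1.46 CPM without, Hoxa10 at 78.2 and 3.24 CPM, and Hoxa9 at 70.9 and 2.22 CPM, each higher in 4 of 4 pools, whereas Hoxd12 was higher in 1 of the 4 and Hoxa13 in 0. Hoxa10 reached 10 CPM in 58.5% of Cdx4-positive cells and in 3.17% of the others. Of 14 listed posterior signals and early posterior factors 10 were over 2-fold higher (median of all 14, 2.54), among them Wnt5a (132 CPM with Cdx4, 18.3 without), Fgf17 (24.5 with, 0.520 without), the retinoic acid-degrading enzyme Cyp26a1 (21.5 with, 2.99 without) and T, the Brachyury factor (119 with, 6.98 without; 10 of 41 cells). With Cdx2, 10 of 15 listed Hox genes of groups 5 to 9 and 2 of 12 of groups 10 to 13 were over 2-fold higher; the difference between Cdx4 and Cdx2 was not tested, and the cells overlap. The states mix genotypes and clusters: 22 of the 41 Cdx4-positive cells come from cluster 7, which is itself led by Hox genes.

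**Figure D5:**
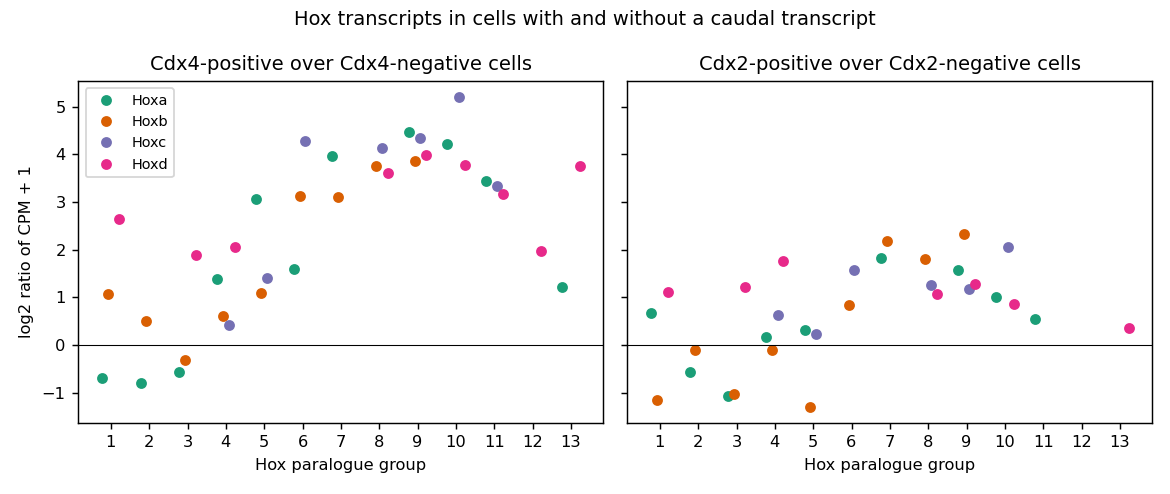
Log2 ratio of CPM + 1 for the listed Hox genes of at least 1 CPM in either state, by paralogue group, in Cdx4-positive over Cdx4-negative cells (left) and Cdx2-positive over Cdx2-negative cells (right); each point is 1 gene and colours are the 4 Hox clusters. All points of groups 5 to 13 lie above 0 with Cdx4, and Hoxc10 is the highest (90.5 CPM with Cdx4, 1.46 without).

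Cdx1 was scarce in every genotype. It lies on chromosome 18 at 61018862 to 61036199 on the minus strand (GRCm38, GENCODE vM21), with 3 exons. In Ngn3Cre the pools of 21, 24 and 27 somites held 2.54, 0.438 and 0.0219 CPM. In HM the pools of 15, 18, 21 and 24 somites held 0.482, 0, 0.0524 and 0.306 CPM. In HZ the pools of 18, 21, 24 and 27 somites held 0.881, 0.709, 0.633 and 2.08 CPM. HM lay below HZ at all 3 shared stages, with 0, 2 and 16 reads in HM and 22, 45 and 19 in HZ at 18, 21 and 24 somites. Ngn3Cre overlapped both. None of the contrasts passed, with log2 fold changes of -1.15 ± 2.37 for Ngn3Cre over HZ (edgeR adjusted p = 0.933), 2.43 ± 2.16 for Ngn3Cre over HM (0.553) and -3.59 ± 2.19 for HM over HZ (0.527). The slopes of Cdx1 and Cdx2 over stage did not pass either (-0.08 ± 0.18 for Cdx1, edgeR adjusted p = 0.946).

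Cdx1-positive cells numbered 8 of 333 in Ngn3Cre (2.40%), 1 of 171 in HM (0.585%) and 13 of 326 in HZ (3.99%). All were below the 4.44% of neural or neural crest-like cells (4 of 90, exact interval 1.22% to 11.0%, median depth 492410 reads). Whether Cdx1 in that class is background was not tested. Of the 22 positive cells, 6 rested on at most 3 reads, and the highest held 27. By class, 9 were endocrine-like and 4 also held Cdx2. Neurog3 was found in 13 of the 22 cells, at 3.38% of Neurog3-positive cells (13 of 385) against 2.02% of Neurog3-negative cells (9 of 445). Of the 8 positive Ngn3Cre cells 7 held Neurog3. But 7 of these 8 came from 21 somites, where 82 of all 106 Ngn3Cre cells (77.4%) held it. Pdx1 was found in 1 of the 22. The gene most like Cdx1, the ephrin receptor Epha8, reached r = 0.22, and 2 of its 5 nearest genes were kept with Spearman's rho.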

How the data were processed

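The authors deposited whole-number read counts and, separately, TPM values for each gene and cell. The submitters' processing notes name HISAT2 2.1.0, Trimmomatic 0.39, FastQC 0.11.9 and the builds GRCm38 and mm10. Counter, annotation, strand and use of molecular identifiers or mates: not given in the sources used here. Even numbers made up 57.2% of nonzero counts in the median cell. CPM, pools, shares and correlations were computed here. edgeR 4.0.16 (R 4.3.3; quasi-likelihood, TMM, default low-count filter, genotype and stage as factors) was fitted over all genes of 11 pools, with Benjamini-Hochberg adjustment at 0.05, and tested on simulated data. Alternatives used DESeq2 1.42.0, limma 3.58.1, other filters, scalings, depths and pools. Cells were clustered with scanpy 1.11.5; no doublet caller was run. The members, lists, markers and naming rule (caudal genes, Pdx1, Neurog3, most and least similar genes, list members by p) were chosen with earlier results of these data known. Some items are not reported here.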

Additional observations from a re-analysis of the deposited data

Results flagged for a closer look

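Of the values by pool in HM and HZ, 3 lay far from the other pools of their genotype by Dixon's criterion, which flags about 1 in 20 groups by chance. Ngn3Cre, with 3 tested pools, was not screened. The HM pool of 15 somites held Cdx4 at 68.5 CPM with TMM scaling, while the other HM pools held 0.762 to 1.15 CPM; 3 of its 16 cells gave 97.5% of the reads. The HM pool of 18 somites held 29.4% Cdx2-positive cells (5 of 17), the lowest of HM, beside 67.5% to 75.0% in the other pools. The HM pool of 24 somites held 1.25% Cdx1-positive cells, which is 1 of 80, while the others held none. With the other pools tied, any positive cell there is flagged, so the rate of 1 in 20 does not apply to this value. Outside the tested pools, the 4 HM cells of 27 somites held Cdx2 at 96.9 CPM, against 9.30 CPM in HZ of that stage, and 1 of the 4 gave 95.3% of its reads.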

How the results depend on the processing

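For the 32 values recomputed, 370 alternatives were graded the same, 30 reversed, 9 weakened, 1 strengthened and 18 moved, and the cause was not tested. For fits, the same meant equal direction and side of the threshold, which includes many contrasts that never passed. For shares it meant a value inside the main interval. For differences with and without Pdx1 or Neurog3 it meant a value within the spread of the main intervals, and for similar genes that most were kept. For Cdx2 in Ngn3Cre over HZ, the log2 fold change was -1.48, -0.80 and -1.40 in limma on means of log2(CPM + 1), log2(CPM + 10) and log2(TPM + 1), -3.45 both with all 14 pools and without the stage term, -3.20 without endocrine-like cells and 0.51 in endocrine-like cells only, none of them past the threshold. Without endocrine-like cells Cdx2 stood at -2.98 in Ngn3Cre over HM and -0.22 in HM over HZ. Endocrine-like cells only gave 0.52 for Cdx1 in Ngn3Cre over HZ, 0.11 for its slope and 0.41 for the slope of Cdx4, which DESeq2 put at -0.54 and called. Pools of at least 20 cells turned the slope difference between HM and HZ to 0.67 for Cdx1 and 0.78 for Cdx4. For Cdx4, the 3 limma fits gave 0.16, 0.051 and 0.15 in HM over HZ and -0.14, -0.025 and -0.13 in Ngn3Cre over HM, and no stage term gave 1.69, -3.04 and, in Ngn3Cre over HZ, -1.35, where thinned cells gave -0.19.

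Leaving out 1 pool at a time, Cdx2 ranged from -4.46 to -3.53 in Ngn3Cre over HZ (past the threshold in 9 of 11 fits), from -4.84 to -4.11 in Ngn3Cre over HM (11 of 11), from 0.00 to 1.02 in HM over HZ, from -0.20 to -0.01 in slope and from 0.13 to 0.55 in slope difference. Cdx4 ranged from -1.20 to 1.89, 0.86 to 3.45 and -2.06 to -0.71 in these 3 contrasts, with slopes of -0.62 to -0.24 and slope differences of -0.51 to 0.61. Cdx1 ranged from -3.90 to 0.71, 0.13 to 4.88 and -6.08 to -2.59, with -0.20 to 0.054 and -0.67 to 0.77.

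Shares moved with the threshold. At 1 read or more, Cdx2 reached 12.9% in Ngn3Cre, 77.8% in HM and 36.2% in HZ, Cdx4 in 9.01%, 25.7% and 14.4%, and Cdx1 in 3.51% of HM. At 50 CPM, Cdx2 was in 2.40%, 53.8% and 18.1%, Cdx4 in 2.76% of HZ, and Cdx1 in 0.601%, 0% and 0.307%. Thinned, Cdx2 was in 72.0% of HM. With minus without Neurog3, Cdx2-positive cells differed by 2.04, 1.17 and 0.202 percentage points in Ngn3Cre at 1 read, at 50 CPM and thinned (main -1.71), and by 46.5 at 50 CPM, where 1 HM cell held Neurog3, and -0.595 in cells of at least 100000 reads in HM (main 4.41), the last chosen after seeing the data. With minus without Pdx1 in HZ, 50 CPM gave 5.33 (main 22.8). Spearman's rho kept 5 of the 10 genes most like Cdx2. Genes called in HM over HZ numbered 17 up and 254 down in edgeR, 345 and 1169 in DESeq2 and 0 and 3 without endocrine-like cells; in Ngn3Cre over HZ 1 and 61, 303 and 736, and 0 and 3; in Ngn3Cre over HM 936 and 925, 2022 and 1756, and 44 and 55. Slopes had 0 calls in edgeR and 196 up and 159 down in DESeq2 (141 and 76 for the difference of HM and HZ), or 43 and 33 in edgeR with all 14 pools. Thinned cells gave 73 up and 491 down in HM over HZ. Cdx1 rests on 299 reads and Cdx4 on 1572, and the slopes of Cdx1 could not be fitted in thinned cells. No paired analysis was possible because the numbers in the labels name single cells and no embryo.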

Other observations

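Outside the mesenchyme-like cluster, Cdx4 reached high counts in a few endocrine-like cells. Both Cdx4-positive Ngn3Cre cells of 27 somites were endocrine-like, with 105 and 69 reads of Cdx4 and none of Cdx2. With them this pool had the highest Cdx4 level of the tested Ngn3Cre pools (4.07 CPM). In HZ at 24 somites 1 endocrine-like cell held 51 Cdx4 reads, also without Cdx2.

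The Cdx1 cell with the most reads (27, Ngn3Cre, 21 somites) also held 38 reads of Cdx2, 38 of Pdx1 and 727 of Neurog3. It belonged to cluster 9, which held Cdx1 at 3.51 CPM in 4 of 47 cells, the highest of the 13 clusters, before cluster 1 at 2.11 CPM. The 27 reads of that cell are part of this level, and the level of cluster 9 without it was not computed. In the mesenchyme-like cluster, Cdx2-positive cells held the notochord and tail bud gene T in 9 of 28 cells and Shh in 17 of 28. Of its 30 Cdx2-negative cells 1 held T and 7 held Shh. The median depth there was 534100 reads with Cdx2 and 293963 without.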
